A study of Arabidopsis thaliana with 12 samples.

Results

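Gibberellin oxidases are the dioxygenases that finish and undo the synthesis of gibberellin, a growth hormone. The genes described here are 10 members of these families in Arabidopsis thaliana, chosen by gene identifier out of the 27416 gene rows of a count table. They are the GA20-oxidase genes GA20OX1 (AT4G25420), GA20OX2 (AT5G51810) and GA20OX3 (AT5G07200), the GA3-oxidase genes GA3OX1 (AT1G15550) and GA3OX2 (AT1G80340), and the GA2-oxidase genes GA2OX1 (AT1G78440), GA2OX2 (AT1G30040), GA2OX4 (AT1G47990), GA2OX6 (AT1G02400) and GA2OX8 (AT4G21200). Their transcripts were measured in shoot apices by RNA sequencing, with 4 libraries of each of 3 genotypes. The genotypes were rAP2-VENUS line #A6, ap2-12 and the wild-type accession Col-0 (WT).

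Line #A6 is a single named line with a construct that joins the floral regulator APETALA2 (AP2) to VENUS, a fluorescent protein. Its promoter is not labelled, nor are the AP2 alleles of its background or what the r means. The ap2-12 plants are labelled as a mutant and no further allele is given. Days had 16 h light and 8 h dark, and tissue was taken once the main stem was 1 cm tall. The labels give no age in days, and they read as if each replicate were a pool of apices.

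Gibberellin synthesis ends in steps taken by small families of soluble oxygenases. GA20-oxidases trim carbon-20 from the precursor in successive steps, and GA3-oxidases then add the hydroxyl group that makes the hormone active. GA2-oxidases hydroxylate active gibberellins or their precursors so that the receptor no longer binds them. In the Arabidopsis inflorescence gibberellin promotes flowering and stem growth, while KNOX proteins of the meristem are known to keep its level low, in part through these genes.

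Library totals were 9680133 to 15152704 counts, so that 1 CPM, the count scaled to library size, stood for 9.6 to 14.9 counts after scaling. AP2 was at 41.3 to 58.1 CPM in rAP2-VENUS, at 15.5 to 20.6 CPM in ap2-12 and at 42.3 to 92.8 CPM in WT. Of the apex markers, STM was at 25.7 to 82.2 CPM and WUS at 4.97 to 10.3 CPM over the libraries, while CLV3 stayed at 0 to 0.521 CPM, with 0 counts in ap2-12 replicates 1 and 4. Clock genes differed between replicate numbers, with all 8 examined called in an edgeR test that had genotype in the model. LHY, which peaks in the morning, was at 94.3 CPM in rAP2-VENUS, 136 CPM in ap2-12 and 224 CPM in WT in replicate 1, and at 12.7, 20.8 and 22.8 CPM in the same order in replicate 4. The hour of harvest is not in the labels.

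GA2OX1 and GA2OX2, which encode enzymes that inactivate the hormone, were the highest members per length in ap2-12 and WT, and GA20OX2 stood with them in rAP2-VENUS. Levels of different genes are set side by side only as CPM per kilobase (kb) of the longest annotated transcript. In rAP2-VENUS the order began with GA2OX1 at 10.8 ± 0.633 CPM per kb (SD, n = 4 here and below), GA20OX2 at 8.25 ± 0.959 and GA2OX2 at 6.91 ± 0.66, and the ranges of GA20OX2 and GA2OX2 overlapped. GA2OX8 (1.47 ± 0.39) and GA20OX1 (0.859 ± 0.149) came next, followed by GA2OX6, GA2OX4 and GA3OX1 at 0.23 to 0.536 CPM per kb, whose ranges ran into each other. In ap2-12 the order was GA2OX2 (6.81 ± 1.64), GA2OX1 (4.97 ± 1.25) and GA2OX4 (4.05 ± 1.15), each overlapping the next, and then a gap to GA2OX6 (1.71 ± 0.339), GA20OX2 (1.67 ± 0.533), GA20OX1 (1.6 ± 0.478), GA3OX1 (1.24 ± 0.3) and GA2OX8 (0.998 ± 0.621), which overlapped. In WT GA2OX1 (10.3 ± 2.81) and GA2OX2 (7.27 ± 1.51) overlapped and stood clear of GA20OX2 (3.44 ± 1.03). Below it in WT, GA2OX8 and GA20OX1 were both at 1.89, GA2OX4 at 0.896, GA3OX1 at 0.872 and GA2OX6 at 0.419 CPM per kb, each overlapping its neighbour. GA3OX2 and GA20OX3 were near or at 0 in each genotype, though in rAP2-VENUS GA3OX2 (0.137 ± 0.0608) overlapped the low GA3OX1.

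**Figure D1:**
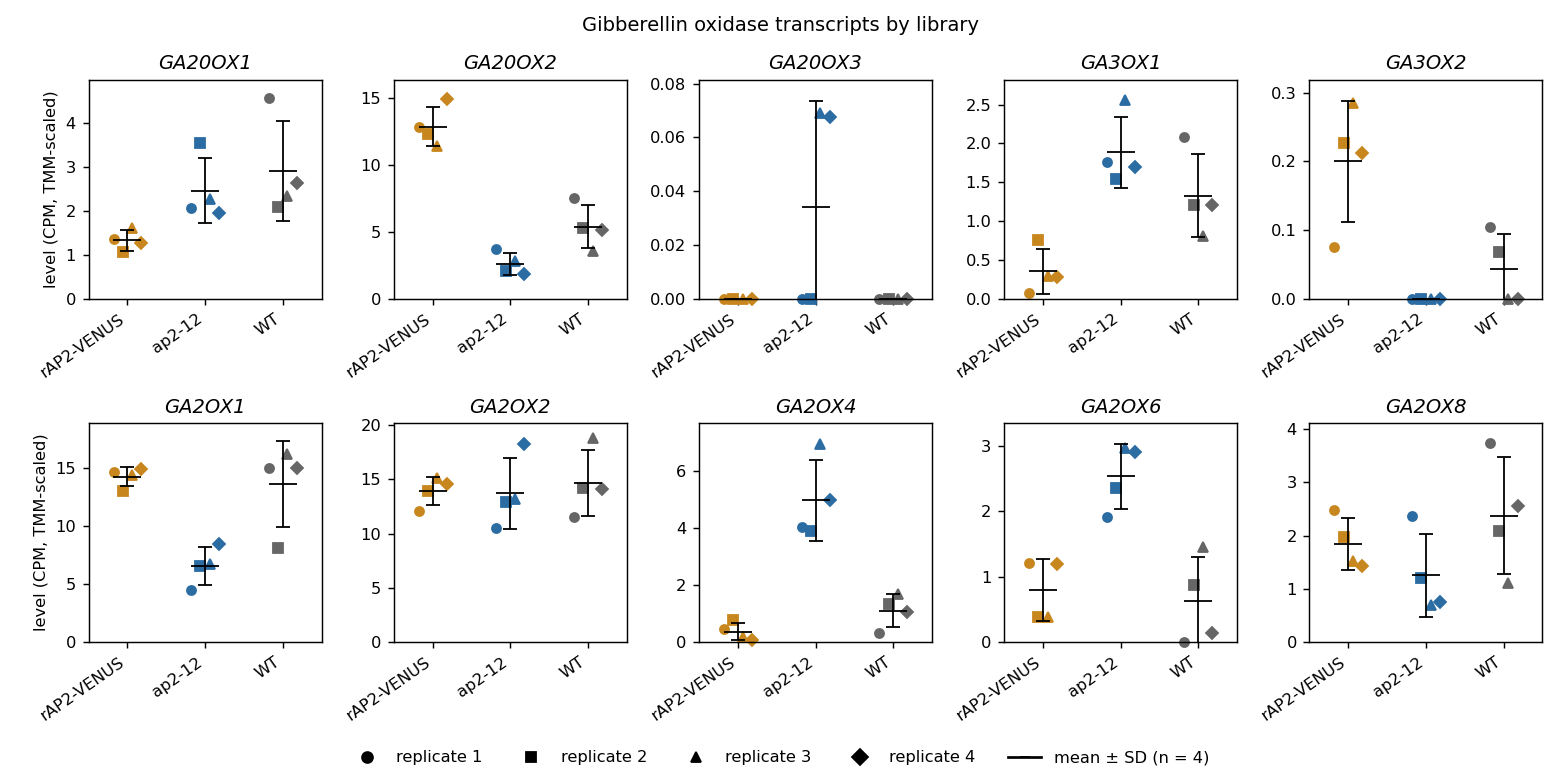
Level of each of the 10 gibberellin oxidase genes in CPM (vertical axes, linear, each from 0 with its own range) in 4 libraries per genotype, with replicate numbers as symbols and bars for the mean ± SD. GA20OX2 is highest in rAP2-VENUS (11.4 to 14.9 CPM), and GA2OX4 is highest in ap2-12 (3.89 to 6.98 CPM).

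Differences were tested with edgeR's quasi-likelihood test over all 18807 genes kept by the low-count filter, and a gene was called where its p, adjusted by Benjamini and Hochberg's method, was under 0.05. Of the 10 members 8 passed the filter and GA20OX3 and GA3OX2 did not. GA3OX1, GA2OX4 and GA2OX6 are low enough that 1 genotype could carry them through it, so the counts over the 8 describe these genes and are no measure of how often oxidase genes differ. Between rAP2-VENUS and ap2-12, 4 of the 8 were called, beside 19.6% of all genes tested. GA20OX2 and GA2OX1 were higher (11.7% of all genes were) and GA3OX1 and GA2OX4 lower (7.86% of all genes). Between rAP2-VENUS and WT, GA20OX2 was called higher and 0 members lower, beside 0.627% of all genes called (0.261% higher and 0.367% lower). With the replicate number as a block in a fit of all 12 libraries, 424 genes were called there in place of 118. GA20OX2 (edgeR adjusted p = 0.00454) was again the 1 member among them. Between ap2-12 and WT 3 of the 8 were called, beside 15.2% of all genes, GA2OX4 higher (5.65% of all genes) and GA20OX2 and GA2OX1 lower (9.59% of all genes). The 2 genotypes' libraries did not overlap for 6 of the 8 in rAP2-VENUS vs ap2-12 (24.5% of all genes), for 3 in rAP2-VENUS vs WT (5.02%) and for 2 in ap2-12 vs WT (18.6%). The comparisons share libraries, among them the WT libraries of both comparisons with WT, so they do not count as separate evidence. Since apices are mixtures, fewer cells of a type and less RNA per cell cannot be told apart in any of these values.

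**Figure D2:**
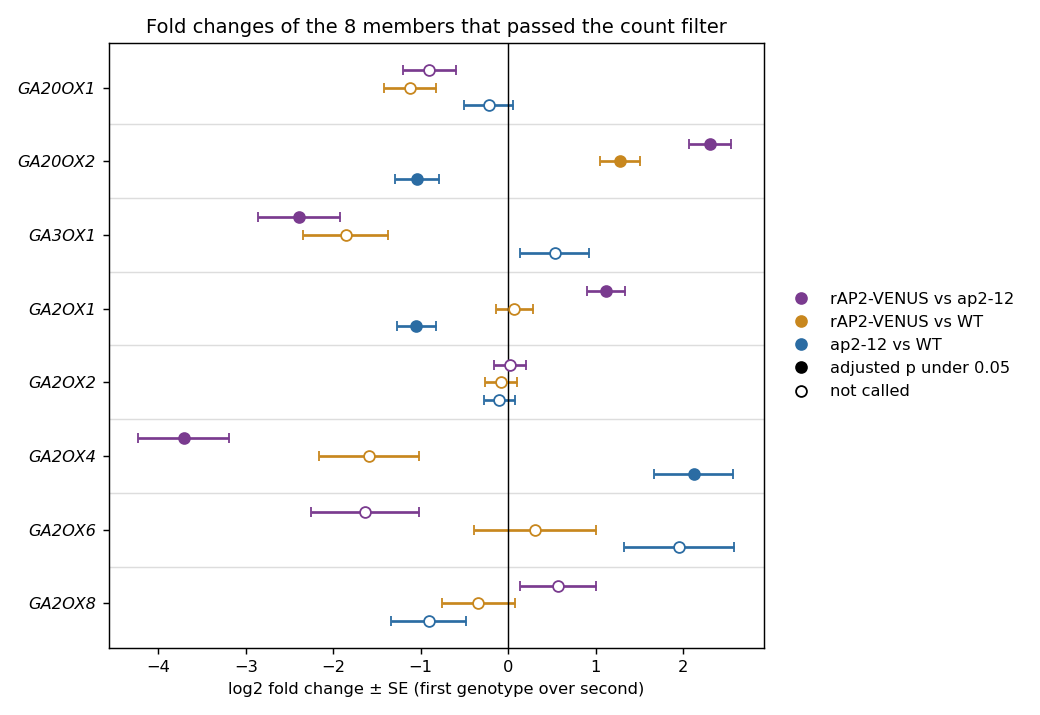
Log2 fold change ± SE (horizontal axis, first genotype over second) of the 8 members that passed the count filter, for rAP2-VENUS vs ap2-12, rAP2-VENUS vs WT and ap2-12 vs WT from top to bottom in each row. Filled points were called at an adjusted p under 0.05 (edgeR), and open points were not; the largest difference is that of GA2OX4 between rAP2-VENUS and ap2-12 at -3.71.

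The bases before the gene starts are shown for GA20OX2, GA2OX1 and GA2OX4, the members called against WT, because AP2 is a DNA-binding protein and the letters let its reported target be looked for. Each sequence is the 250 bases before the annotated start of the gene in RefSeq's assembly TAIR10.1, written 5′ to 3′ on the gene's own strand. Capitals mark AACAAA or its reverse complement TTTGTT, reported in the literature as bound by AP2.
GA20OX2 (chr5:21056882-21057131, minus strand): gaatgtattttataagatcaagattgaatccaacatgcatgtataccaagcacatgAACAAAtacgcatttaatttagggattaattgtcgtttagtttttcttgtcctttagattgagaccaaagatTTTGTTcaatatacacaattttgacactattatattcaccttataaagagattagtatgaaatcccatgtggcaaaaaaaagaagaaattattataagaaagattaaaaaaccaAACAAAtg
GA2OX1 (chr1:29513101-29513350, minus strand): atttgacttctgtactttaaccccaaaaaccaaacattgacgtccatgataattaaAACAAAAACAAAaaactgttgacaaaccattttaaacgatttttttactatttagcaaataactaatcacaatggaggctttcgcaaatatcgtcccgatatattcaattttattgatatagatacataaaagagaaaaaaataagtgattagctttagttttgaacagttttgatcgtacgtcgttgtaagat
GA2OX4 (chr1:17698348-17698597, plus strand): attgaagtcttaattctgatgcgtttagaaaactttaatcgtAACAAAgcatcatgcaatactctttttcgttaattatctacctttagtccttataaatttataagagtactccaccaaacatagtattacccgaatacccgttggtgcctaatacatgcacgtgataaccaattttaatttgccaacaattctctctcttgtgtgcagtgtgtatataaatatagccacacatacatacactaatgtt
GA20OX2 held 3 matches, GA2OX1 held 2 that abut, and GA2OX4 held 1. Of the 10 members 6 held at least 1 match, beside 55% of 27443 promoters of that length, and 3 or more were found in 6.84% of all promoters. The CArG box of MADS factors (2.52% of all promoters) and the KNOX motif TGACAG (5.86%), each searched on both strands, were found before none of the 10. A match is a string of letters and not a site, and no match in this window says nothing of a factor's binding.

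GA20OX2 was the 1 member called in all 3 comparisons, with its highest level in rAP2-VENUS, its lowest in ap2-12 and WT between them. It was at 12.8, 12.3, 11.4 and 14.9 CPM in rAP2-VENUS replicates 1 to 4, at 3.67, 2.08, 2.83 and 1.82 CPM in those of ap2-12 and at 7.5, 5.26, 3.58 and 5.12 CPM in those of WT. Every rAP2-VENUS library lay above every other library, while ap2-12 replicate 1 reached just above WT replicate 3. The level in rAP2-VENUS was 4.97-fold that of ap2-12 (log2 fold change 2.31, SE 0.24, edgeR adjusted p = 2.85e-05). It was 2.42-fold that of WT (1.28, SE 0.23, adjusted p = 0.0258), with ratios of 1.71, 2.34, 3.18 and 2.92 between libraries of the same replicate number. The level in ap2-12 was 2.05-fold lower than in WT (-1.04, SE 0.25, adjusted p = 0.0132), with ratios of 0.489, 0.395, 0.791 and 0.356 by replicate number.

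The call of GA20OX2 between rAP2-VENUS and WT by edgeR with genotype as the only term sat close to the threshold. It was lost when any single rAP2-VENUS library or WT replicate 2, 3 or 4 was left out (adjusted p = 0.0506 to 0.0849) and kept without WT replicate 1 (0.0194), with log2 fold changes of 1.12 to 1.47 throughout. With all libraries DESeq2 (adjusted p = 1.87e-05) and limma-voom (0.00914) called this difference as well, and their omissions were not run. The other edgeR calls of GA20OX2 held whichever of the 8 libraries was left out. Their largest adjusted p was 0.000248 for rAP2-VENUS vs ap2-12 and 0.0489 for ap2-12 vs WT.

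GA20OX1, which encodes an enzyme of the same activity and acts in stem elongation, did not follow GA20OX2. It was at 1.36, 1.06, 1.62 and 1.27 CPM in rAP2-VENUS, at 2.06, 3.55, 2.28 and 1.96 CPM in ap2-12 and at 4.58, 2.09, 2.34 and 2.63 CPM in WT. All rAP2-VENUS libraries were below all those of ap2-12 and WT, the reverse of their place for GA20OX2. The log2 fold change was -0.9 (SE 0.3, adjusted p = 0.0541) to ap2-12 and -1.12 (SE 0.3, adjusted p = 0.156) to WT. Neither was called by edgeR with genotype as the only term. With the replicate number as a block edgeR called the first (adjusted p = 0.0458) and not the second (0.102). DESeq2 called the first (adjusted p = 0.0364) and not the second (0.0554). Between ap2-12 and WT the log2 fold change was -0.22 (95% interval -0.83 to 0.4, adjusted p = 0.664).

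GA20OX2 made up 90.5% ± 2.15 of the summed GA20-oxidase level per kb in rAP2-VENUS, 50.5% ± 11.5 in ap2-12 and 64.8% ± 4.95 in WT (SD, n = 4 each). The lowest rAP2-VENUS library had 87.5% and the highest WT library 71.3%. GA20OX3 added nothing visible to this sum. It had 2 counts in all, 1 each in ap2-12 replicates 3 and 4, and 0 in rAP2-VENUS and WT, where a count of 0 allows up to 0.0587 and 0.0575 CPM (3 counts over the group's libraries; counting error only).

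GA3OX1, the main GA3-oxidase gene of shoots, had its lowest level in rAP2-VENUS. The counts were 1, 10, 3 and 4 in rAP2-VENUS, 23, 23, 37 and 25 in ap2-12 and 20, 18, 11 and 17 in WT, which is 0.0754 to 0.756 CPM, 1.54 to 2.56 CPM and 0.804 to 2.08 CPM. All rAP2-VENUS libraries were below all others, while ap2-12 and WT overlapped. The level in rAP2-VENUS was 5.25-fold lower than in ap2-12 (log2 fold change -2.39, SE 0.47, edgeR adjusted p = 0.00306), a call that held in every single-library omission. Against WT the log2 fold change was -1.86 (SE 0.49), which edgeR did not call (adjusted p = 0.141) and DESeq2 did (0.0221). Between ap2-12 and WT it was 0.53 (95% interval -0.33 to 1.4, adjusted p = 0.426).

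GA3OX2, a GA3-oxidase gene best known from germinating seeds, was barely detected. It had 1, 3, 3 and 3 counts in rAP2-VENUS, 0 in every ap2-12 library, and 1, 1, 0 and 0 in WT. The ratio of rAP2-VENUS to WT was 5.1 (95% interval 1.09 to 47.9, Clopper-Pearson, exact, counting error alone). Against the 0 counts of ap2-12 the ratio has no upper limit, and its exact lower 95% limit was 2.51. In an edgeR fit without the low-count filter GA3OX2 had an adjusted p of 0.0237 for rAP2-VENUS vs ap2-12 and 0.609 for rAP2-VENUS vs WT. GA3OX1 and GA3OX2 differed in opposite directions between rAP2-VENUS and ap2-12, and with so few counts the size of the second difference is poorly known.

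Among the GA2-oxidases, GA2OX1 was lower and GA2OX4 higher in ap2-12, while GA2OX2 differed little between genotypes. GA2OX1 was at 14.6, 13, 14.4 and 14.9 CPM in rAP2-VENUS, at 4.43, 6.5, 6.7 and 8.44 CPM in ap2-12 and at 15, 8.09, 16.2 and 15 CPM in WT. The rAP2-VENUS libraries were all above those of ap2-12, and WT replicate 2 fell within the range of ap2-12. GA2OX1 was 2.17-fold higher in rAP2-VENUS than in ap2-12 (log2 fold change 1.12, SE 0.22, adjusted p = 0.00289) and 2.07-fold lower in ap2-12 than in WT (-1.05, SE 0.22, adjusted p = 0.00594). Between rAP2-VENUS and WT the log2 fold change was 0.07 (95% interval -0.38 to 0.53, adjusted p = 0.993). Both calls held in all single-library omissions.

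GA2OX4, a gene reported to be active around the base of the meristem, showed the widest spread between genotypes of the 8 tested members. The counts were 6, 10, 2 and 1 in rAP2-VENUS, 53, 58, 101 and 74 in ap2-12 and 3, 20, 23 and 15 in WT, which is 0.0708 to 0.756 CPM, 3.89 to 6.98 CPM and 0.313 to 1.68 CPM. Every ap2-12 library was above all others, and rAP2-VENUS and WT overlapped. The level in rAP2-VENUS was 13.1-fold lower than in ap2-12 (log2 fold change -3.71, SE 0.52, adjusted p = 0.000265). The level in ap2-12 was 4.36-fold that of WT (2.12, SE 0.45, adjusted p = 0.00626), and with the 3 counts of WT replicate 1 left out it was still called, at 1.86 (0.0109). Against WT, rAP2-VENUS stood at -1.59 (SE 0.57, adjusted p = 0.374), with ratios of 1.45, 0.56, 0.113 and 0.0664 by replicate number.

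GA2OX6, like GA2OX4, had its highest level in ap2-12, though edgeR with genotype as the only term called it in none of the 3 comparisons. Its counts were 16, 5, 4 and 17 in rAP2-VENUS, 25, 35, 43 and 43 in ap2-12 and 0, 13, 20 and 2 in WT. The ap2-12 libraries, at 1.91 to 2.97 CPM, were all above those of rAP2-VENUS (0.378 to 1.21 CPM) and WT (0 to 1.46 CPM). The log2 fold change of ap2-12 to WT was 1.95 (SE 0.63, adjusted p = 0.0576), which edgeR did not call and DESeq2 (0.0217) and limma-voom (0.0202) did. Without WT replicate 3 edgeR called it too, at 2.74 (adjusted p = 0.0177), as it did with the replicate number as a block, at 1.98 (0.0275). That of rAP2-VENUS to ap2-12 was -1.64 (SE 0.62, adjusted p = 0.0854), called with an adjusted p of 0.0143 when only those 8 libraries were fitted. That of rAP2-VENUS to WT was 0.31 (95% interval -1.21 to 1.82, adjusted p = 0.991).

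With genotype as the only term, GA2OX2 and GA2OX8 were not called in any comparison. GA2OX2 was at 12.1 to 15.1 CPM in rAP2-VENUS, 10.5 to 18.3 CPM in ap2-12 and 11.5 to 18.8 CPM in WT. Its log2 fold changes were 0.02 (95% interval -0.36 to 0.4) for rAP2-VENUS vs ap2-12, -0.08 (-0.46 to 0.31) for rAP2-VENUS vs WT and -0.1 (-0.48 to 0.28) for ap2-12 vs WT. GA2OX8, whose enzyme acts on the longer carbon-20 precursors and not on the active hormone, was at 1.42 to 2.49 CPM in rAP2-VENUS, 0.691 to 2.37 CPM in ap2-12 and 1.1 to 3.75 CPM in WT. Its log2 fold change was 0.57 (95% interval -0.37 to 1.52) for rAP2-VENUS vs ap2-12, -0.34 (-1.25 to 0.58) for rAP2-VENUS vs WT and -0.91 (-1.85 to 0.03, adjusted p = 0.193, and 0.0364 without ap2-12 replicate 1) for ap2-12 vs WT. With the replicate number as a block edgeR called GA2OX8 for ap2-12 vs WT (-0.95, adjusted p = 0.0245). The groups overlapped for both genes in all 3 comparisons.

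The summed GA2-oxidase level overlapped between the 3 genotypes, while the shares of single genes in it did not all overlap. The 5 genes together held 20.1 ± 0.566 CPM per kb in rAP2-VENUS (19.3 to 20.6), 18.5 ± 3.12 in ap2-12 (15 to 22.1) and 20.8 ± 3.42 in WT (16.6 to 24.9). GA2OX1 supplied 54% ± 1.69 of this in rAP2-VENUS, 26.6% ± 3.17 in ap2-12 and 49.1% ± 8.37 in WT. GA2OX4 supplied 1.51% ± 1.29, 21.8% ± 4.75 and 4.35% ± 2.32 in the same order, and GA2OX6 2.65% ± 1.55, 9.21% ± 0.659 and 2% ± 2.06. The share of GA2OX2 was 34.5% ± 3.37 in rAP2-VENUS, 36.5% ± 3.56 in ap2-12 and 35.2% ± 6.31 in WT. In every ap2-12 library the GA2OX1 share was lower, and the GA2OX4 and GA2OX6 shares higher, than in any library of the other genotypes.

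The sum of the GA20-oxidase and GA3-oxidase levels, divided by that of the GA2-oxidases, was 0.472 ± 0.0378 in rAP2-VENUS, 0.252 ± 0.0668 in ap2-12 and 0.308 ± 0.117 in WT. The rAP2-VENUS libraries (0.434 to 0.521) lay above those of ap2-12 (0.162 to 0.322) and above 3 of the 4 WT libraries, with WT replicate 1 at 0.452. The GA20-oxidases made up most of the upper sum, at 9.11, 3.28 and 5.33 CPM per kb in rAP2-VENUS, ap2-12 and WT. The GA3-oxidase sum, of GA3OX1 and GA3OX2 alone, had the reverse order, at 0.367, 1.24 and 0.902 CPM per kb, with the WT range overlapping both others. Thus the ratio does not mean that both steps of synthesis were higher in rAP2-VENUS. This ratio of transcripts covers the 10 members alone, is a description with no test, and measures neither enzyme nor hormone. Left out of it, GA3OX3 had 34 counts in rAP2-VENUS, 6 in ap2-12 and 35 in WT, and GA3OX4 had 8, 21 and 14. GA3OX1 had 18, 108 and 66 counts in the same order, so the GA3-oxidase sum depends on which genes are taken.

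Of the 8 members tested, 1 was called between replicate numbers with genotype in the model. This was GA2OX8 (edgeR adjusted p = 0.0296), beside 29.5% of all genes called. Replicate 1 had its highest level in each genotype, 2.49 CPM in rAP2-VENUS, 2.37 CPM in ap2-12 and 3.75 CPM in WT. GA2OX2 had its lowest level in replicate 1 of each genotype, 12.1, 10.5 and 11.5 CPM in that order, and was not called (adjusted p = 0.0796). For the other members tested the adjusted p was 0.267 to 0.972, with GA20OX2 at 0.322 and GA2OX4 at 0.506.

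The coding sequences of the members share no stretch as long as a read with each other. Untranslated parts were not compared, nor were related genes outside the 10. In the same RefSeq annotation, 6 members lie on chromosome 1, 2 on chromosome 4 and 2 on chromosome 5, and 0 of the 10 overlap another annotated gene. The closest pair of coding sequences was GA20OX1 and GA20OX2, at 79.4% identity, with a longest identical run of 29 bases, which is shorter than the reads of 150 bases. GA3OX1 and GA3OX2 were 76.5% identical. Among the GA2-oxidase members, GA2OX1 and GA2OX2 were the closest pair at 66.1%, and GA2OX1 and GA2OX4 were 62.3% identical.

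The genes most like each called member across the 12 libraries were found by Pearson correlation of log2 CPM over 7077 genes with a symbol and a mean of at least 5 CPM. They describe likeness over libraries that share genotype and replicate number. GA20OX2 was most like PAO2 (r = 0.95), NF-YA3 (0.936) and E13L3 (0.933), and GA3OX1 was most like HDG1 (0.934), HSFB4 (0.934) and ABCG35 (0.915). GA2OX1 was most like PnsL2 (0.95), BEE2 (0.946) and BCAT-1 (0.945). GA2OX4 was most like CWLP (0.937), SVP (0.924) and NSP1 (0.921). SVP averaged 6.22 CPM in rAP2-VENUS, 18.7 CPM in ap2-12 and 10.2 CPM in WT.

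Of the other gibberellin genes, those of the early steps of synthesis were not called. CPS, KS, KO, KAO1 and KAO2, which build the precursor that GA20-oxidases use, gave 0 calls among 5 in each comparison. The other 6 oxidase genes examined (GA20OX4, GA20OX5, GA3OX3, GA3OX4, GA2OX3 and GA2OX7) did not pass the count filter and were not tested. Of these, GA3OX3 had 10, 8, 6 and 10 counts in rAP2-VENUS, 4, 0, 1 and 1 in ap2-12 and 10, 9, 6 and 10 in WT. GA2OX3 had 1, 3, 1 and 3 counts in rAP2-VENUS, 1, 6, 6 and 20 in ap2-12 and 0, 0, 2 and 1 in WT. The remaining 4 had at most 10 counts in any library, that of GA3OX4 in ap2-12 replicate 3.

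Another inactivating enzyme gene and a pair of signalling genes were called. ELA1, a cytochrome P450 gene whose enzyme lowers gibberellin, was at 14.8 to 29.9 CPM in rAP2-VENUS, 2.52 to 12.8 CPM in ap2-12 and 13.8 to 34.7 CPM in WT. It was 1.38 higher on the log2 scale in rAP2-VENUS than in ap2-12 (SE 0.41, adjusted p = 0.0309) and fell by 1.52 in ap2-12 relative to WT (SE 0.41, adjusted p = 0.0238). The first call was lost without rAP2-VENUS replicate 2, 3 or 4 or ap2-12 replicate 2 or 3 (adjusted p = 0.0576 to 0.0783), and the second without ap2-12 replicate 2 or WT replicate 3 or 4 (0.0559 to 0.0718). The second was also lost when only the ap2-12 and WT libraries were fitted (edgeR adjusted p = 0.0574). ELA1 was the 1 called gene of 3 tested among other inactivating enzymes. The share of all genes called was 15.2% in ap2-12 vs WT and 19.6% in rAP2-VENUS vs ap2-12.

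Among 10 receptor, DELLA and F-box genes, the receptor gene GID1B was at 12.7 to 16 CPM in rAP2-VENUS, 22.1 to 27.3 CPM in ap2-12 and 15.6 to 19.2 CPM in WT. It was lower in rAP2-VENUS than in ap2-12 (log2 fold change -0.8, SE 0.1, adjusted p = 0.000167) and higher in ap2-12 than in WT (0.52, SE 0.1, adjusted p = 0.00491). RGL1, a DELLA repressor gene, was lower in rAP2-VENUS than in ap2-12 (-0.72, adjusted p = 0.00342) and higher in ap2-12 than in WT (0.47, adjusted p = 0.0413). The second call was lost without ap2-12 replicate 1, 2 or 3 or WT replicate 3 or 4 (adjusted p = 0.0584 to 0.11). It was also lost when only the ap2-12 and WT libraries were fitted (edgeR adjusted p = 0.0842). The other 8 were not called, and none of the 10 was called between rAP2-VENUS and WT. Beside these stand 15.2% of all genes called in ap2-12 vs WT and 19.6% in rAP2-VENUS vs ap2-12.

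Of 10 transcription factor genes reported to act on gibberellin oxidase genes, 4 were called in ap2-12 vs WT, 4 in rAP2-VENUS vs ap2-12 and 2 in rAP2-VENUS vs WT. The shares of all genes called were 15.2%, 19.6% and 0.627% in the same order. SVP, a flowering repressor reported to lower GA20OX2, was at 4.67 to 7.11 CPM in rAP2-VENUS, 17 to 21.2 CPM in ap2-12 and 9.21 to 11 CPM in WT. This is the reverse of the order of GA20OX2, and a part of SVP in the GA20OX2 levels was not tested. The difference in SVP was -1.59 between rAP2-VENUS and ap2-12 (adjusted p = 5.12e-06), -0.71 between rAP2-VENUS and WT (0.0352) and 0.88 between ap2-12 and WT (0.000592), all on the log2 scale. The call against WT in rAP2-VENUS was kept without WT replicate 3 (0.0477) and lost without any other single library (0.0531 to 0.113). It was also lost when only the rAP2-VENUS and WT libraries were fitted (edgeR adjusted p = 0.113). SOC1, a promoter of flowering, had the same order, at 20.6 to 24.6 CPM, 113 to 132 CPM and 42.8 to 60.5 CPM in rAP2-VENUS, ap2-12 and WT. The KNOX gene STM and its partner gene ATH1 were lower in ap2-12 than in WT, by log2 fold changes of -1.18 (edgeR adjusted p = 0.000206) and -0.86 (0.000457). STM was at 55.5 to 81.2 CPM in rAP2-VENUS, 25.7 to 33.5 CPM in ap2-12 and 56.2 to 82.2 CPM in WT, and ATH1 at 40.9 to 47.9, 20.2 to 25.8 and 36.5 to 52.9 CPM. KNAT1, KNAT2, TCP14, TCP15, GAF1 and SCL3 were not called in any comparison.

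Marker genes of the apex and of other tissues differed between the genotypes as well. The summed level of 6 shoot apex markers was 282 to 346 CPM in rAP2-VENUS, 174 to 206 CPM in ap2-12 and 313 to 427 CPM in WT. Of the 5 that were tested, AP1, LFY and STM were called lower in ap2-12 vs WT, and these and WUS higher in rAP2-VENUS vs ap2-12, and 0 were called in rAP2-VENUS vs WT. The summed level of 5 carpel and ovule markers was 66.2 to 83.7 CPM in rAP2-VENUS, 227 to 282 CPM in ap2-12 and 81.4 to 130 CPM in WT. CRC was the largest part of this sum, with means of 51.4, 162 and 89.1 CPM in the same order. The other 4 had higher means in rAP2-VENUS than in WT. These were STK (3.01 against 1.41 CPM), SHP1 (7.16 against 6.18), SHP2 (10.4 against 7.73) and INO (0.312 against 0.0178). The summed level of 6 xylem markers was 73.1 to 78.5, 16 to 21.9 and 50.8 to 60 CPM in rAP2-VENUS, ap2-12 and WT, and that of 4 leaf photosynthesis markers 9360 to 11700, 5370 to 7350 and 9070 to 14100 CPM. Of 6 tapetum markers it was 150 to 256, 184 to 323 and 112 to 203 CPM. None of these markers was at 0 in all libraries of a genotype. In ap2-12 vs WT all 5 carpel markers and 2 tapetum markers were called higher, and all 6 xylem and all 4 photosynthesis markers lower. In rAP2-VENUS vs ap2-12, 4 of the 5 carpel markers were lower and all 6 xylem and 3 of the 4 photosynthesis markers higher, with 0 tapetum markers called, and in rAP2-VENUS vs WT none of these markers was called. Over all genes, 15.2% were called in ap2-12 vs WT, 19.6% in rAP2-VENUS vs ap2-12 and 0.627% in rAP2-VENUS vs WT. The part of tissue make-up in the differences of the members was not tested.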

How the data were processed

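The authors deposited unscaled counts of reads for each gene, with a column for each library; the build is TAIR10, per the file headers. The submitters' processing notes name the tools TopHat2, SAMtools and HTSeq; versions, settings and strand are not given in the sources used here. The table has no row of unassigned reads, and its 210 organelle rows hold 0 counts.

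Samples were grouped by their sample descriptions. Counts were filtered with filterByExpr (18807 of 27416 genes kept), scaled by TMM and fitted over all 12 libraries with genotype as the only term in edgeR 4.0.16 (glmQLFit, glmQLFTest; R 4.3.3), with Benjamini-Hochberg adjustment over all genes kept. SEs were taken as |log2 fold change| over the root of F. CPM use TMM-scaled totals, and correlations use log2 CPM with a prior count of 2. The difference between replicate numbers was an F test beside genotype. DESeq2 1.42.0, limma-voom (limma 3.58.1), other scalings and filters, pairwise fits, single-library omissions and a replicate block were alternatives. The steps were also run on simulated counts that had no effect of replicate number, with changes placed only in genes above a floor of expected counts. That run thus does not cover replicate effects or changes in genes of few counts.

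Symbols, transcript lengths and promoters came from RefSeq's annotation and genome of TAIR10.1 and were joined to the counts by locus identifier alone; 26719 identifiers matched and 697 did not. Coding sequences were aligned with Biopython 1.88.

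The members and gene lists were chosen with earlier results of these data known. All 10 members are named, with library values for those called in any comparison and for GA20OX1 and GA2OX6, which were added after their values were seen. Of the other gibberellin and transcription factor lists each called gene is named, with some uncalled ones by choice, and for each called member the 3 most correlated genes. Tissue markers are mostly given as sums and counts. Libraries of a genotype differed by more than sampling noise (chi-square per degree of freedom 5.19 to 47.9). Deviations of same-numbered rAP2-VENUS and WT libraries correlated at r = 0.63, 0.23, 0.2 and 0.43. The values were 0.6, -0.01, 0.47 and 0.39 for ap2-12 and WT, and 0.54, 0.06, 0.05 and 0.56 for rAP2-VENUS and ap2-12. What libraries of the same number share is not labelled. The main fits thus do not pair libraries in any comparison, and the replicate block is an alternative in each. Replicates are called independent in the labels, with no hour, date or batch.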

Additional observations from a re-analysis of the deposited data

Results flagged for a closer look

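GA2OX1 in WT replicate 2 stood apart from its group, at 8.09 CPM against 15 to 16.2 CPM in the other WT libraries, with a gap of 0.856 of the group's range, above Dixon's 95% critical value for 4 samples. Without that library the log2 fold change of ap2-12 to WT was -1.24 (edgeR adjusted p = 0.00058), against -1.05 with it. It was the 1 such case among 30 sets of 4 libraries examined, where chance gives about 1 in 20.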

How the results depend on the processing

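With the replicate number as a block, edgeR called 424 genes for rAP2-VENUS vs WT (118 without the block), 5419 for ap2-12 vs WT (2866) and 6215 for rAP2-VENUS vs ap2-12 (3686). The block added calls for GA2OX6 (adjusted p = 0.0275) and GA2OX8 (0.0245) in ap2-12 vs WT and for GA20OX1 (0.0458) in rAP2-VENUS vs ap2-12, ended no call of a member and changed no other call of one. DESeq2 called 340 genes for rAP2-VENUS vs WT. Leaving out single libraries gave 55 to 108 genes for rAP2-VENUS vs WT, 2038 to 3143 for ap2-12 vs WT and 2792 to 3723 for rAP2-VENUS vs ap2-12. The count for rAP2-VENUS vs WT was 76, 64, 55 and 71 without rAP2-VENUS replicates 1 to 4, and 69, 57 and 58 without WT replicates 1, 2 and 4. Leaving out a replicate number in all genotypes, chosen after seeing the data, gave 54, 18, 23 and 34 genes for numbers 1 to 4 in rAP2-VENUS vs WT, 2603, 1347, 1780 and 1452 in ap2-12 vs WT, and 3290, 1943, 2377 and 2341 in rAP2-VENUS vs ap2-12. Under these omissions ap2-12 vs WT lost GA20OX2 without number 2 (0.125) or 4 (0.0943) and GA2OX1 without number 3 (0.0667), and rAP2-VENUS vs WT kept GA20OX2 without number 1 alone. Fewer libraries were fitted in each omission, and the causes were not tested otherwise. No called value of a member changed its direction under any alternative run. Upper-quartile scaling called GA20OX1 for rAP2-VENUS vs ap2-12 (0.0466), as did the fit of those genotypes alone (0.0386). The mean transcript ratio was 0.456 to 0.485 in rAP2-VENUS, 0.229 to 0.282 in ap2-12 and 0.26 to 0.353 in WT when single libraries were left out. GA2OX4 did not pass the count filter when rAP2-VENUS and WT were fitted alone, so that setting gave no value for it. Depth limits GA3OX1, GA2OX4 and GA2OX6 in rAP2-VENUS and WT, where single libraries held from 0 to 23 counts.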
